A study of Mus musculus with 20 samples.

Results

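The Schlafen genes of the mouse were examined in myeloid cells of tumours grown from MC38, a transplantable colon carcinoma line. The 7 members Slfn1, Slfn2, Slfn3, Slfn4, Slfn5, Slfn8 and Slfn9 were taken by name and found by their Entrez numbers among 36528 gene models; the rule uses no measured value, but the family was picked with earlier results of these data known. The 4 groups of 5 RNA-seq libraries were sorted macrophages from tumours given an antibody to PD-L1 (label aPDL1), macrophages from control tumours (label ctrl), monocytes from anti-PD-L1 tumours and monocytes from control tumours. RNA was taken 7 days after the start of treatment in all groups. The mouse strain, age and genotype, the control treatment, the antibody clone and dose and the sort gates are not named in the labels. Nor do they tie libraries to animals, and the p-values given here rest on the spread among libraries, which could be technical. Sample numbers run lower in every control than in every treated library, so that treatment and their order cannot be told apart.

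Schlafen proteins are found in mammals and a few other vertebrates, and many of their genes are induced by interferons. They share an N-terminal core that in several members binds or cuts transfer RNA. Mouse members fall into short forms made of little more than this core (Slfn1 and Slfn2), middle forms (Slfn3 and Slfn4) and long forms with an added helicase-like part (Slfn5, Slfn8 and Slfn9). The family was named for the arrest of thymocyte growth seen with some members, and in myeloid cells several members change with activation and differentiation.

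All members lie in 1 cluster on chromosome 11, between 82951349 and 83286726 of GRCm38, which spans 335.38 kb and holds 9 Schlafen models. Slfn5 (Entrez 327978) lies at 82951349 to 82964850, Slfn9 (237886) at 82974316 to 82991830 and Slfn8 (276950) at 83002125 to 83020810. Slfn2 (20556) follows at 83065112 to 83070678, Slfn1 (20555) at 83116820 to 83122670, Slfn4 (20558) at 83175172 to 83190216 and Slfn3 (20557) at 83191330 to 83215154. Coding lengths in GENCODE M21 were 1011 nt for Slfn1 and 1134 nt for Slfn2, 1920 nt for Slfn3 and 1806 nt for Slfn4. The long forms had 2652 nt for Slfn5 and 2730 nt for both Slfn8 and Slfn9.

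The promoters of the 3 long forms are shown because each holds the core of an interferon-stimulated response element, the site through which interferon-activated factors act. The RefSeq table gives 250 bases before and 50 after each annotated transcript start on GRCm38.p6, and it matched all 7 members. The core of the element, GAAA followed by any 2 bases and another GAAA, was searched on both strands. It was found in Slfn5, Slfn8 and Slfn9, and in 3.44% of 32851 promoters, which cover 27025 genes. The longer form, with CT after the core, was found in Slfn8 and Slfn9, and in 0.271% of all promoters. In Slfn8 the same bases were matched in the overlapping windows of 2 annotated starts. Capitals mark the core, which lies on the opposite strand in Slfn8 and Slfn9. The stretches are chr11:82951907-82951996 (plus strand) for Slfn5, chr11:83020811-83020898 (minus strand) for Slfn8 and chr11:82991831-82991915 (minus strand) for Slfn9. The Slfn5 stretch lies inside the gene model of Slfn5, before an annotated start downstream of the model's first base.
Slfn5: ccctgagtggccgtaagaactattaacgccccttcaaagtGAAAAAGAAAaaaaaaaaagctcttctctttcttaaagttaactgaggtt
Slfn8: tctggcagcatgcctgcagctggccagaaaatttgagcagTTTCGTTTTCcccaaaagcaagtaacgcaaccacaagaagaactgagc
Slfn9: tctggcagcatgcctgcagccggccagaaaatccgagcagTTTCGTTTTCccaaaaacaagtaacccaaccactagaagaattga

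The promoters of the short and middle forms held no such core in these windows, and are shown because all 4 hold another stretch in common. ACTTCCTGG, a sequence with an ETS factor core that was picked after these promoters had been read, was found in Slfn1, Slfn2, Slfn3 and Slfn4 and in 0.843% of all promoters. In Slfn2 it overlaps, on the other strand, a match to GGAA followed by any 2 bases and GAAA, the composite element of ETS and interferon regulatory factors, which was found in 2.72% of promoters. The gamma-activated site TTCNNNGAA was found in 0 of the 7 members and in 8.30% of promoters. Matches are descriptions of the letters and not evidence of binding. The stretches, all on the plus strand, are chr11:83116706-83116794 for Slfn1, chr11:83065017-83065105 for Slfn2, chr11:83191248-83191329 for Slfn3 and chr11:83175073-83175161 for Slfn4, with ACTTCCTGG in capitals.
Slfn1: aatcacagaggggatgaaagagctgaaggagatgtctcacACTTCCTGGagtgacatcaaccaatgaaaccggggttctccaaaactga
Slfn2: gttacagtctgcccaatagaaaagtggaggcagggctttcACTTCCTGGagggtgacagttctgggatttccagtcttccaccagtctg
Slfn3: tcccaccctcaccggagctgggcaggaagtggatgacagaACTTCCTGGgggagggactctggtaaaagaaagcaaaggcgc
Slfn4: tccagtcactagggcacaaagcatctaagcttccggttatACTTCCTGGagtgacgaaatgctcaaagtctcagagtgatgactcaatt

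Libraries held 30191509 to 36514133 counts. All 7 members passed the filter on low counts, with between 254 counts (lowest library for Slfn3) and 31490 counts (highest library for Slfn5). The labels were checked against markers: Ly6c2, which encodes a surface antigen of classical monocytes, was at 3.06 to 23.5 CPM in macrophages and 506 to 2023 CPM in monocytes, and C1qa, a complement chain of macrophages, at 3043 to 5541 and 428 to 817 CPM. Cd3e, which marks T cells, was at or below 1.20 CPM in all libraries. Of the neutrophil markers, Ly6g was at or below 0.809 CPM in all libraries, but S100a9 was at 16.1 to 173 CPM in anti-PD-L1 monocytes and 11.7 to 181 CPM in control monocytes. Fibroblast transcripts moved with treatment. The summed level of 19 fibroblast markers was 86.5 to 420 CPM in anti-PD-L1 macrophages, against 126 to 2407 CPM in control macrophages, and 80.9 to 608 CPM in anti-PD-L1 monocytes, against 377 to 3697 CPM in control monocytes. None of the 19 was at 0 in every library of a group, 10 fell with treatment in macrophages and 13 fell in monocytes. A bulk library cannot tell fewer cells of a type from less RNA per cell.

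Per length, on the deposited nRPKM scale, Slfn2 was the highest member in all 4 groups and did not overlap with the next. Slfn2 is needed to keep T cells and monocytes of the mouse in quiescence. Its level averaged 227 ± 24.0 nRPKM in anti-PD-L1 macrophages and 194 ± 40.6 in control macrophages, 468 ± 69.1 in anti-PD-L1 monocytes and 331 ± 85.7 in control monocytes (SD, n = 5 each). Slfn1 came second in each group, at 57.2 ± 10.1, 36.9 ± 7.19, 181 ± 11.6 and 108 ± 21.0 nRPKM in the same order of groups, and its range overlapped with that of the next member each time. Slfn3 was the lowest in every group, at 2.34 ± 0.240, 2.45 ± 0.522, 3.05 ± 0.417 and 2.48 ± 0.656 nRPKM.

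The make-up of the family differed between the cell types in its level of Slfn4, a member known in the mouse for its expression in myeloid cells. Slfn4 made up 1.26% ± 0.511 of the summed nRPKM of the 7 members in anti-PD-L1 macrophages and 1.62% ± 0.692 in control macrophages, against 15.3% ± 4.21 in anti-PD-L1 monocytes and 13.6% ± 3.93 in control monocytes. Slfn4 ranked 6 of 7 in macrophages, where its range overlapped with that of Slfn3. In monocytes it ranked 3 of 7, and overlapped with Slfn5. The share of Slfn2 was 62.7% ± 4.65 and 66.1% ± 5.48 in anti-PD-L1 and control macrophages, and 46.8% ± 6.01 and 50.5% ± 3.83 in anti-PD-L1 and control monocytes. The 7 members summed to 363 ± 32.3, 292 ± 47.3, 1002 ± 118 and 659 ± 185 nRPKM in these groups.

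**Figure D1:**
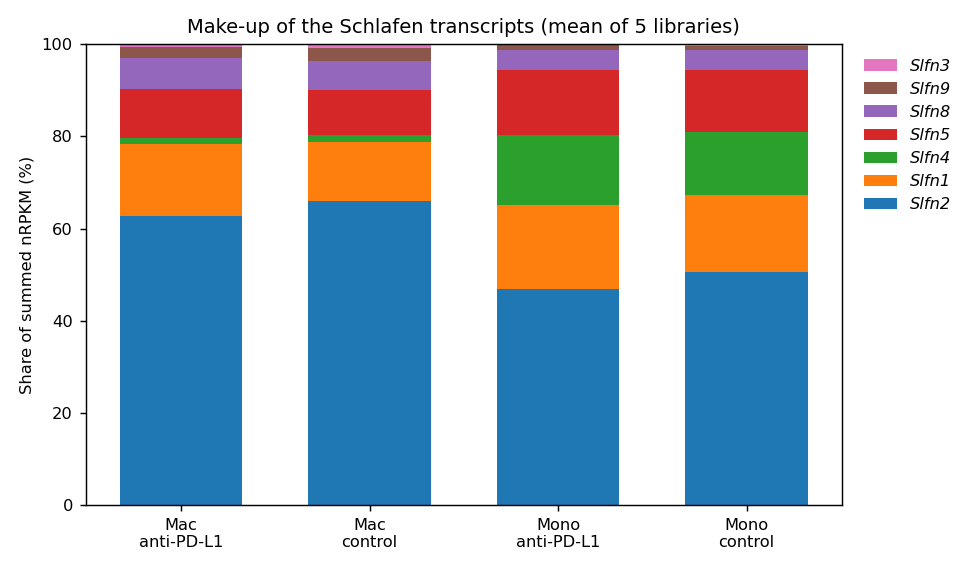
Stacked bars give the share of each member in the summed nRPKM of the 7 Schlafen genes (y axis, percent), as the mean of 5 libraries in each group (x axis; Mac, macrophages; Mono, monocytes). Slfn4 holds 1.26% and 1.62% in macrophages and 15.3% and 13.6% in monocytes.

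Which members differed between macrophages and monocytes was asked within treated and within control tumours. Levels from here on are CPM on TMM library sizes, and each fold change is a log2 value with its SE from the quasi-likelihood fit of edgeR to all 20 libraries. A gene was called past an adjusted p of 0.05 (Benjamini-Hochberg over 15390 genes). In anti-PD-L1 tumours 5 of 7 members were lower in macrophages and 0 were higher, in a comparison that called 53.9% of all genes tested, with 25.7% lower and 28.2% higher. In control tumours 6 of 7 passed, 5 lower and 1 higher, where 44.1% of all genes were called, 3084 lower and 3700 higher. The median log2 fold change of the members was -1.02 in anti-PD-L1 and -0.73 in control tumours, beside -0.010 and -0.0044 over all genes tested. Overlap of groups is described below for the members only, with no share over all genes to set it against.

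Slfn4 showed the widest gap. Its 5 libraries read 29.6, 15.7, 13.7, 25.5 and 10.3 CPM in anti-PD-L1 macrophages, against 426, 906, 796, 670 and 361 CPM in anti-PD-L1 monocytes. Control macrophages had 15.1, 9.29, 19.5, 33.3 and 20.1 CPM of Slfn4, against 315, 338, 371, 178 and 644 CPM in control monocytes. Every macrophage library lay below every monocyte library. The log2 fold change of Slfn4 was -5.06 (SE 0.43, adjusted p = 1.64e-08) in anti-PD-L1 tumours, 33.4 times lower in macrophages, and -4.25 (SE 0.41, adjusted p = 1.38e-07) in control tumours. Neutrophils, in which Slfn4 is also known to be expressed, had a marker list summing to 80.0 to 125 CPM in anti-PD-L1 and 50.8 to 88.3 CPM in control macrophages, against 265 to 583 CPM in anti-PD-L1 and 195 to 424 CPM in control monocytes. All 7 testable markers of the 12 were lower in macrophages in both comparisons, and 1 of the 12 was at 0 in every anti-PD-L1 and 3 in every control macrophage library. Csf3r, a receptor gene, supplied most of the macrophage sums, at 96.4 ± 19.3 CPM in anti-PD-L1 and 61.8 ± 15.7 CPM in control macrophages, where S100a8 was below 1 CPM. The part of these transcripts in the Slfn4 result was not tested. S100a8, which encodes an abundant granulocyte protein, was at 7.99 to 80.2 CPM in anti-PD-L1 and 8.46 to 75.6 CPM in control monocytes.

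Slfn5, a long form studied in human cells as a nuclear repressor of transcription, was next. It had 326, 272, 229, 248 and 219 CPM in anti-PD-L1 macrophages, against 939, 1052, 969, 1028 and 660 CPM in anti-PD-L1 monocytes. Control macrophages had 140, 172, 209, 251 and 174 CPM, against 516, 697, 469, 368 and 919 CPM in control monocytes. Neither pair of groups overlapped. The log2 fold change was -1.84 (SE 0.21, adjusted p = 8.12e-07) in anti-PD-L1 and -1.65 (SE 0.21, adjusted p = 4.32e-06) in control tumours.

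Slfn1, the short form first linked to growth arrest of T cells, also did not overlap. It had 136, 114, 101, 112 and 82.6 CPM in anti-PD-L1 macrophages, against 341, 361, 328, 365 and 308 CPM in anti-PD-L1 monocytes. In control macrophages Slfn1 read 80.3, 56.8, 76.9, 86.1 and 56.2 CPM, against 177, 208, 161, 212 and 257 CPM in control monocytes. The log2 fold changes of Slfn1 were -1.64 (SE 0.15, adjusted p = 3.71e-08) in anti-PD-L1 and -1.51 (SE 0.15, adjusted p = 1.60e-07) in control tumours.

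Slfn2 and Slfn8 were lower in macrophages by smaller steps. Slfn2 had 364, 454, 343, 386 and 398 CPM in anti-PD-L1 macrophages, against 700, 836, 906, 643 and 853 CPM in anti-PD-L1 monocytes, with no overlap (-1.02, SE 0.16, adjusted p = 3.05e-05). In control tumours its values were 414, 363, 300.5, 364 and 236 CPM in macrophages, against 494, 578, 403, 532 and 770 CPM in monocytes, and these overlapped (-0.73, SE 0.16, adjusted p = 0.00114). Slfn8 is a long form related to human SLFN11 and SLFN13. It had 129, 121, 88.4, 89.5 and 81.8 CPM in anti-PD-L1 macrophages, against 157, 189, 201, 184 and 138 CPM in anti-PD-L1 monocytes, again without overlap (-0.77, SE 0.18, adjusted p = 0.00121). The control values of Slfn8 overlapped, with 68.4, 66.2, 83.7, 90.5 and 64.96 CPM in macrophages, against 102, 118, 83.9, 88.7 and 171 CPM in monocytes (-0.59, SE 0.18, adjusted p = 0.0109). Without control monocyte replicate 5 the control value of Slfn8 was -0.39 and did not pass (adjusted p = 0.0527).

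Slfn9, the near copy of Slfn8, did not share this gap. Slfn9 had 71.4, 60.8, 68.7, 53.1 and 60.2 CPM in anti-PD-L1 macrophages, against 67.7, 82.3, 78.0, 82.1 and 51.9 CPM in anti-PD-L1 monocytes (-0.20, SE 0.13, adjusted p = 0.206). In control tumours it was higher in macrophages, with 51.1, 58.0, 63.2, 76.0 and 63.2 CPM, against 46.4, 45.6, 46.0, 42.0 and 61.5 CPM in monocytes (0.37, SE 0.13, adjusted p = 0.0304). This call was made in 4 of 8 other settings and in 5 of 20 fits without 1 library. Its adjusted p was 0.0625 with DESeq2's size factors and 0.0553 with DESeq2's own test. Slfn3, a middle form known for its part in the maturation of gut epithelium in the rat, had 9.49, 11.04, 9.68, 8.27 and 9.49 CPM in anti-PD-L1 macrophages, against 12.04, 13.7, 11.2, 14.5 and 10.2 CPM in anti-PD-L1 monocytes. That difference missed the threshold (-0.36, SE 0.16, adjusted p = 0.0691), but passed with neighbouring libraries as a block (-0.36, adjusted p = 0.0064) and in 3 other settings. In control tumours Slfn3 had 10.7, 8.69, 8.64, 13.6 and 9.18 CPM in macrophages, against 7.16, 8.52, 9.98, 10.4 and 13.9 CPM in monocytes (0.023, SE 0.16, adjusted p = 0.922).

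**Figure D2:**
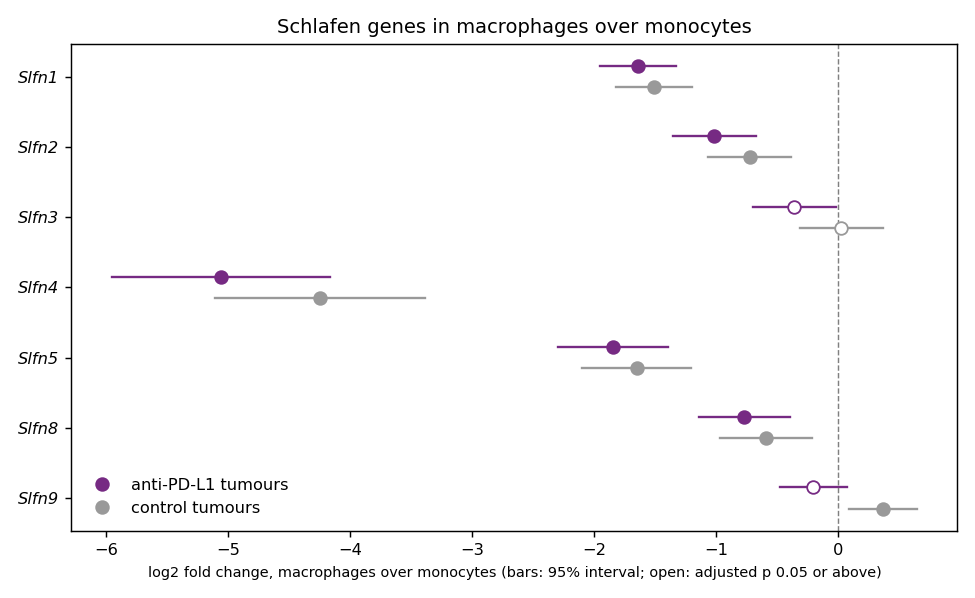
Points give the log2 fold change of each Schlafen gene in macrophages over monocytes (x axis) with its 95% interval, in anti-PD-L1 tumours (purple, upper) and control tumours (grey, lower); open points have an adjusted p of 0.05 or above. Slfn4 stands at -5.06 and -4.25, while Slfn3 and Slfn9 lie near 0.

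Relatives with shared sequence call for care. Coding sequences of Slfn3 and Slfn4 were 92.7% identical over aligned bases, and so were those of Slfn8 and Slfn9. Of all 50-base stretches of the transcript, 21.75% of Slfn3, 11.59% of Slfn4, 15.4% of Slfn8 and 11.85% of Slfn9 also occurred in another gene, against 0.61% of Slfn1 and 4.27% of Slfn2. Slfn5 shared 11.8%, most of it with the antisense model Slfn5os (7.88%). Unique alignment loses or misplaces reads of such stretches to an unknown degree, which leaves the counts of these 5 members uncertain. In control tumours Slfn3 averaged 10.2 ± 2.08 CPM in macrophages and 9.99 ± 2.54 CPM in monocytes (SD, n = 5 each), while its relative Slfn4 averaged 19.4 ± 8.86 CPM in macrophages and 369 ± 170 CPM in monocytes.

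Anti-PD-L1 was compared with control next, first in monocytes. In these 5 of 7 members rose and 0 fell, where 25.3% of all genes were called, 9.92% higher and 15.4% lower. The median log2 fold change of the members was 0.62, beside 0.020 over all genes tested. Slfn1 rose to 341 ± 23.8 CPM in anti-PD-L1 monocytes, against 203 ± 37.2 CPM in control monocytes (SD, n = 5 each). Its log2 fold change was 0.75 (SE 0.15, adjusted p = 0.00424, 1.68-fold), and all 5 treated libraries lay above all 5 controls. Of the members, Slfn1 alone showed groups that did not overlap in this comparison. The share of all genes without overlap is not given, so this only describes the members.

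Slfn2 rose by 0.50 (SE 0.16, adjusted p = 0.0285), to 788 ± 111 CPM in anti-PD-L1 monocytes, against 555 ± 136 CPM in controls. The 3 long forms rose by similar amounts. Slfn5 averaged 930 ± 157 CPM in anti-PD-L1 monocytes and 594 ± 217 CPM in controls (0.65, SE 0.21, adjusted p = 0.0299). Slfn8 averaged 174 ± 25.8 CPM in anti-PD-L1 monocytes and 113 ± 35.3 CPM in controls (0.62, SE 0.18, adjusted p = 0.0179), and Slfn9 72.4 ± 12.9 and 48.3 ± 7.59 CPM (0.58, SE 0.13, adjusted p = 0.00661). For Slfn2, Slfn5, Slfn8 and Slfn9 the overlap involved control replicate 5, which was the highest control monocyte library for every member. For Slfn5, Slfn8 and Slfn9 it also involved treated replicate 5, which was the lowest treated monocyte library for all 3.

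The middle forms did not pass in monocytes. Slfn4 had a log2 fold change of 0.77 with a wide error (SE 0.36, adjusted p = 0.12), and averaged 632 ± 234 CPM in anti-PD-L1 and 369 ± 170 CPM in control monocytes. Slfn3 had a log2 fold change of 0.30 (SE 0.16, adjusted p = 0.179). Without control monocyte replicate 5, Slfn4 reached 1.05 (adjusted p = 0.031) and Slfn3 0.43 (adjusted p = 0.0334), so that all 7 members passed. The number of calls over all genes also moved with the library left out, from 1883 to 5359, against 3900 in the full fit. In a fit to the monocyte libraries alone 2 passed, Slfn1 and Slfn9, and Slfn2, Slfn5 and Slfn8 had adjusted p-values of 0.0744, 0.0883 and 0.055.

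In macrophages 1 of 7 members rose, where 4.65% of all genes were called, 1.73% higher and 2.92% lower. The median of the members was 0.21, beside -0.012 over all genes tested. The riser was Slfn1, at 109 ± 19.7 CPM in anti-PD-L1 macrophages, against 71.3 ± 13.9 CPM in control macrophages (0.62, SE 0.15, adjusted p = 0.0397, 1.53-fold, SD, n = 5 each). The lowest treated library of Slfn1, at 82.6 CPM, lay below the highest control, at 86.1 CPM. Leaving out a single library ended the call 5 times. The adjusted p was 0.0692 and 0.0794 without anti-PD-L1 macrophage replicates 1 and 4, 0.0664 and 0.0958 without control macrophage replicates 1 and 5, and 0.0508 without control monocyte replicate 1.

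The other 6 members did not pass in macrophages. Slfn5 averaged 259 ± 42.8 CPM in anti-PD-L1 macrophages and 189 ± 42.5 CPM in controls (0.45, SE 0.21, adjusted p = 0.193). Slfn8 averaged 102 ± 21.2 and 74.8 ± 11.6 CPM in the same groups (0.45, SE 0.18, adjusted p = 0.132), and Slfn2 389 ± 42.0 and 336 ± 68.9 CPM (0.21, SE 0.16, adjusted p = 0.459). Slfn9, Slfn4 and Slfn3 had log2 fold changes of 0.013 (SE 0.13), -0.038 (SE 0.37) and -0.081 (SE 0.16). The interval for Slfn4 ran from -0.81 to 0.73, so a change of that size in either direction was not detectable here.

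**Figure D3:**
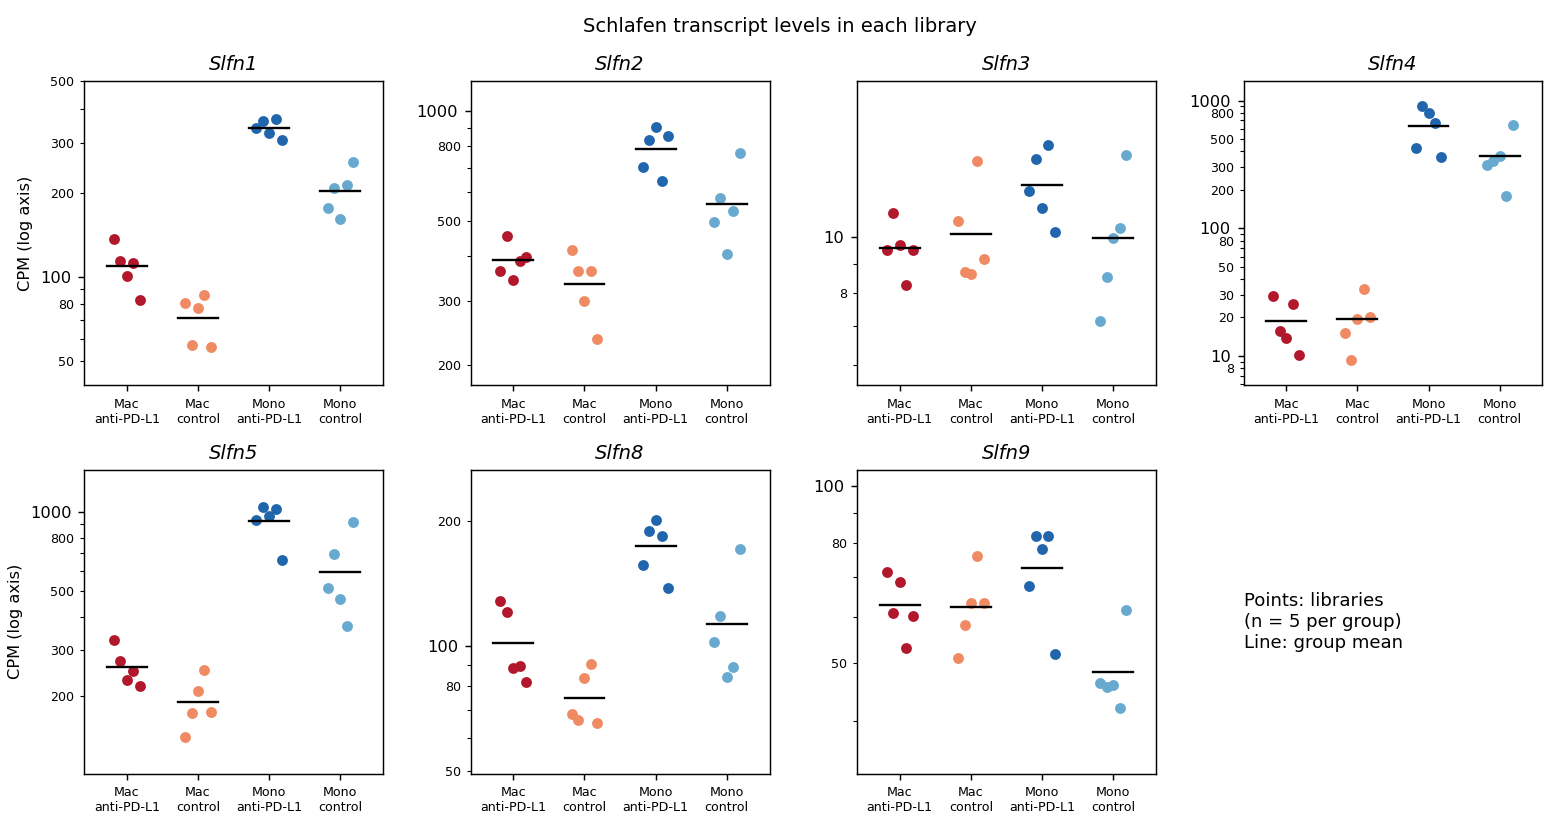
Each panel gives the CPM of 1 Schlafen gene (y axis, log scale) in every library of the 4 groups (x axis; Mac, macrophages; Mono, monocytes), with a line at the group mean. Slfn4 averages 18.9 and 19.4 CPM in macrophages and 632 and 369 CPM in monocytes, and Slfn1 has the treated monocytes wholly above the control monocytes.

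Whether the response differed between the cell types was tested directly as the macrophage effect minus the monocyte effect. In edgeR's test 0 of 7 members and 0 of 15390 genes (0%) passed; at an unadjusted p under 0.05 there were 1 member and 980 genes, and DESeq2 called 7 genes, none of them Schlafen members. The member was Slfn9, with a difference of -0.57 (SE 0.19, unadjusted p = 0.0065, adjusted p = 0.688). The differences of the other 6 ran from -0.13 (SE 0.21) for Slfn1 to -0.81 (SE 0.51) for Slfn4. The 95% interval for Slfn1 ran from -0.56 to 0.30 and that for Slfn5 from -0.81 to 0.42. That more members passed in monocytes is thus no measured difference between the cell types.

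The fibroblast marker level moved with treatment, so that their parts cannot be told apart. Among the controls, the library lowest in this level was the highest in Slfn5 in both cell types. Control monocyte replicate 5 had the lowest fibroblast level of the control monocytes, a mean log2 CPM of 2.81 against 4.09 to 5.74 in the others, and the highest Slfn5, at 919 CPM. Control macrophage replicate 4 had the lowest level of the control macrophages, 1.46 against 3.03 to 5.20, and the highest Slfn5, at 251 CPM. This order did not hold in every library, for Slfn5 or for other members. Control macrophage replicate 2, second lowest in the level at 3.03, had 172 CPM of Slfn5. Control macrophage replicate 3, at a level of 4.50, had 209 CPM. Replicate 2 also had the lowest Slfn4 of the control macrophages, at 9.29 CPM. With this level as a covariate in edgeR 0 of 7 members passed in either cell type. Over all genes tested only 7 passed in monocytes and 2 in macrophages, so this count says little about the members. Slfn1, Slfn8 and Slfn9 in monocytes and Slfn1 in macrophages had an unadjusted p under 0.05. Slfn1 then stood at 0.58 (adjusted p = 0.155) in monocytes and at 0.45 (adjusted p = 0.601) in macrophages, and Slfn5 at 0.31 (adjusted p = 0.573) and 0.11 (adjusted p = 0.994). Without the 6 control libraries highest in these markers 0 of 7 passed in edgeR as well, with 14 libraries in the fit. Over all genes 83 then passed in monocytes and 70 in macrophages. Slfn1 and Slfn9 in monocytes and Slfn1 in macrophages had an unadjusted p under 0.05. Slfn1 then stood at 0.53 (adjusted p = 0.217) in monocytes and 0.61 (adjusted p = 0.169) in macrophages, and Slfn9 at 0.42 (adjusted p = 0.371) in monocytes. Slfn5, Slfn8 and Slfn2 were then at 0.18, 0.25 and 0.21 in monocytes (adjusted p = 0.736, 0.653 and 0.584).

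**Figure D4:**
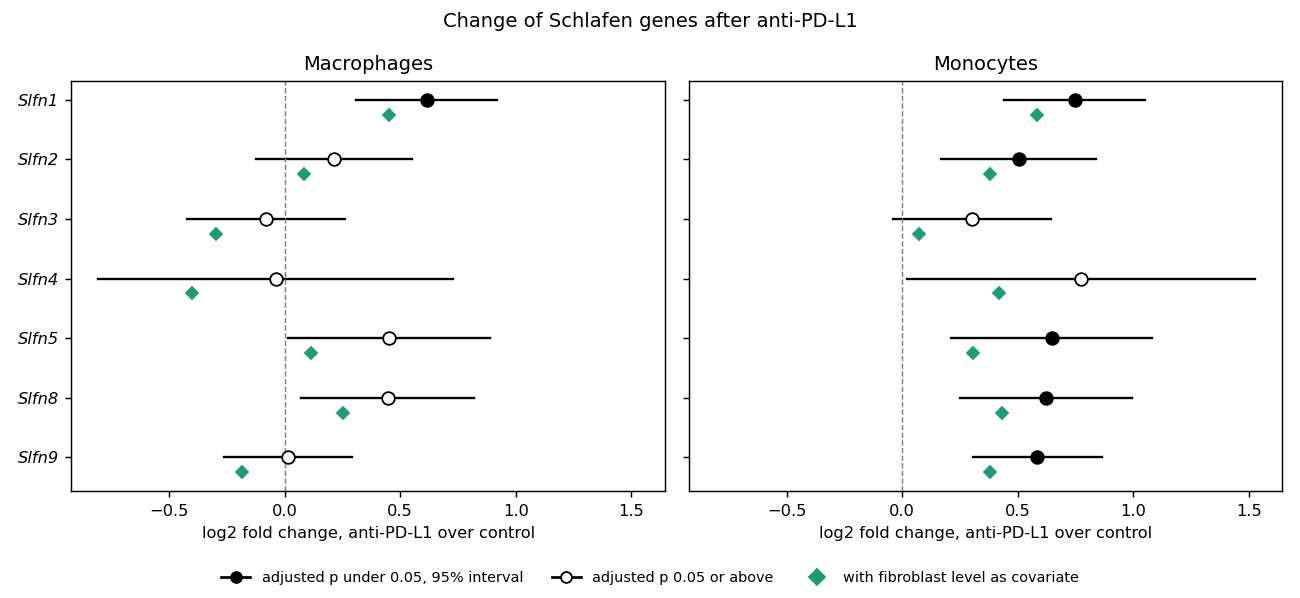
Points give the log2 fold change of each Schlafen gene, anti-PD-L1 over control (x axis), with its 95% interval, in macrophages (left) and monocytes (right); filled points have an adjusted p under 0.05 and diamonds give the value with the fibroblast level as a covariate. All 7 diamonds lie left of their point in both cell types, and Slfn1 in monocytes lies at 0.75 without and 0.58 with the covariate.

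**Figure D5:**
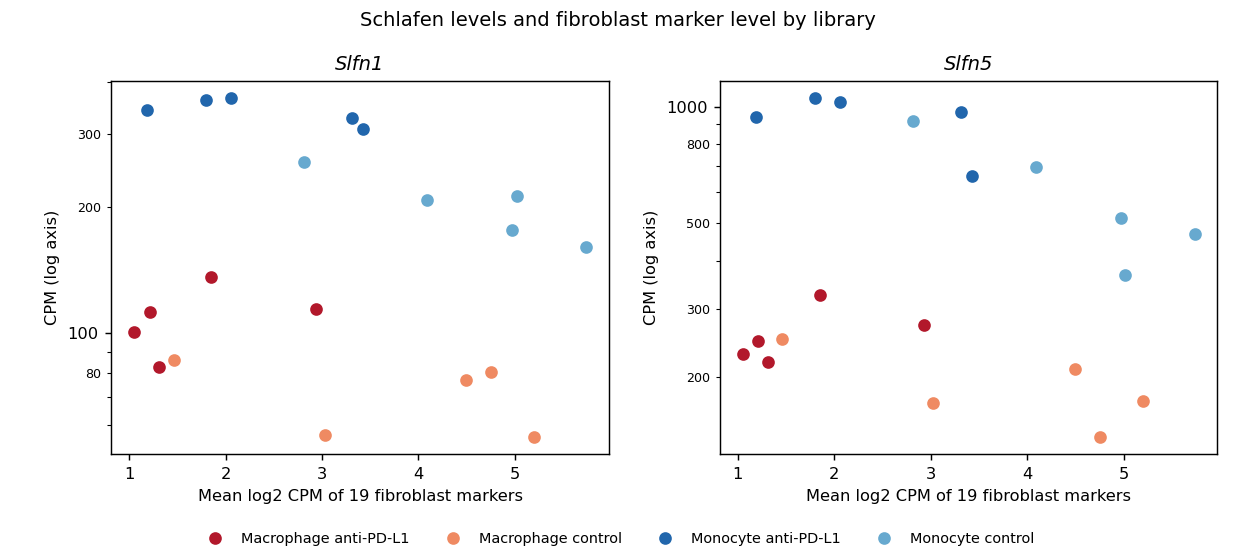
The CPM of Slfn1 and Slfn5 (y axis, log scale) is plotted against the mean log2 CPM of 19 fibroblast markers (x axis) for the 20 libraries, coloured by group. Among control monocytes the library lowest in fibroblast markers, at 2.81, is the highest in Slfn5, at 919 CPM.

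Few single markers of other lists passed with treatment. Of 7 tested NK cell markers 0 passed in macrophages with edgeR (2 at an unadjusted p under 0.05, 1 with DESeq2) and 1, Klrk1, rose in monocytes. Klrk1, which encodes an activating receptor, averaged 95.3 ± 3.57 CPM in anti-PD-L1 and 48.5 ± 12.9 CPM in control monocytes, and supplied most of a list that summed to 112 to 184 CPM in anti-PD-L1 and 36.1 to 80.6 CPM in control monocytes. Ncr1, which encodes a defining NK cell receptor, averaged 0.920 ± 0.689 CPM in anti-PD-L1 and 0.466 ± 0.242 CPM in control monocytes. Of 6 tested endothelial markers 1, Kdr, rose in monocytes, at 10.6 ± 4.29 CPM in anti-PD-L1 and 5.78 ± 1.32 CPM in control monocytes, and 0 passed in macrophages with edgeR (4 at an unadjusted p under 0.05, 2 with DESeq2, 1 higher and 1 lower). In the epithelial list Cdh1, at 76.2 ± 21.8 CPM in anti-PD-L1 and 44.8 ± 11.8 CPM in control macrophages, made up nearly all of the sum and was called by DESeq2 but not by edgeR, and Epcam averaged 0.117 ± 0.101 and 0.264 ± 0.137 CPM in the same groups. The part of these transcripts in the Schlafen results was not tested. In the comparison of cell types the calls of Slfn1, Slfn2, Slfn4, Slfn5 and Slfn8 were made in all 8 other settings, the fibroblast covariate among them.

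The members varied together to unequal degrees. Within groups, as Pearson's r of deviations from the group mean over 20 libraries, which share their depth and cell sort, r was 0.892 for Slfn5 with Slfn8, 0.797 for Slfn5 with Slfn9 and 0.775 for Slfn4 with Slfn5. Slfn2 stood apart, with r between 0.027 (Slfn9) and 0.502 (Slfn8). By spread within groups, Slfn4 was the most variable member, with a coefficient of variation of 37.0% to 46.1% across groups. Slfn1 in anti-PD-L1 monocytes was the least variable, at 6.98%.

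The genes whose pattern over the 20 libraries was most like each member were found by Pearson's r of log2 CPM, as a description in which the gap between cell types has a large part. Slfn5 was most like Daxx (r = 0.994), which encodes a histone chaperone, followed by Tdrd7 and Tut7. Slfn4 was most like Lilra6 (0.983), a gene of a leukocyte receptor, Arid3a and Ptafr. Slfn1 was most like Trex1 (0.981), which encodes a DNA exonuclease, Samhd1 and Atrip. Slfn2 was most like Ifi204 (0.984), an interferon-induced gene for a DNA sensor, followed by Syf2 and Osbpl9. Slfn8 was most like Ifit2 (0.978), Ifi206 and Ifih1, all induced by interferon. Slfn9 reached 0.878 with Kansl1l and Slfn3 0.760 with Morc3, both lower than the best match of the other members.

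Interferon-induced genes were counted beside the members, and a link between them was not tested. Of 34 tested genes of the type I interferon list, 27 rose and 0 fell in monocytes after anti-PD-L1, where 9.92% of all genes rose. The median log2 fold change of the list was 0.65, beside 0.62 for the Schlafen members. The risers included Ifi44 (1.16, SE 0.19), Herc6 (0.90, SE 0.16), Irf7 (0.93, SE 0.19) and Oasl2 (0.83, SE 0.18). In macrophages 2 of the 34 rose, Zbp1 (0.57, SE 0.15, adjusted p = 0.0461) and Ifi44 (0.66, SE 0.19, adjusted p = 0.0489), with a median of 0.36, beside 0.21 for the members. Over all genes 1.73% rose in macrophages. Of 32 genes of the interferon-gamma list, 30 rose in monocytes (median 0.90) and 12 in macrophages (median 0.62). Of 22 genes for interferon receptors and signalling, 14 rose in monocytes, among them Irf2, Irf7 and Ifngr2, and 2 in macrophages, among them Socs1 (0.99, SE 0.27). DESeq2 called more in macrophages, with 10 of the type I, 27 of the interferon-gamma and 9 of the signalling genes higher.

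Most of these calls were lost when the fibroblast level was taken into account. With it as a covariate in edgeR 1 type I gene, Ifi44, rose in monocytes, and 0 of the interferon-gamma and 0 of the signalling list, while 18, 26 and 9 were higher at an unadjusted p under 0.05. In macrophages 0 of each list passed with the covariate, while 2, 15 and 1 were higher at an unadjusted p under 0.05. Without the 6 fibroblast-rich controls 1, 7 and 0 genes of the type I, interferon-gamma and signalling lists rose in monocytes, with 9, 28 and 8 higher at an unadjusted p under 0.05. In macrophages 0, 5 and 0 then rose, with 8, 28 and 8 higher at an unadjusted p under 0.05. Over all genes tested 83 passed in monocytes without these controls, against 3900 with them, and 70 in macrophages, against 715. With the covariate 7 of all genes passed in monocytes and 2 in macrophages.

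Most genes of the type I list were lower in macrophages than in monocytes. In anti-PD-L1 tumours 32 of 34 were lower and 2 higher, with a median of -0.94, and in control tumours 24 were lower and 2 higher, with a median of -0.59. Isg20, an interferon-induced exonuclease gene, was at -2.62 (SE 0.22) and -2.18 (SE 0.22).

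Lists tied to known Schlafen functions were also counted. Of 25 genes of the cell cycle, 20 fell and 0 rose in monocytes after anti-PD-L1 (median -1.35), where 15.4% of all genes were called lower. In macrophages 0 passed with edgeR or DESeq2 (median -0.46), and 3 were lower at an unadjusted p under 0.05 in edgeR. Without the 6 fibroblast-rich controls 0 of the 25 passed in monocytes with edgeR, and 1, Ccnb2, was lower at an unadjusted p under 0.05. With the fibroblast covariate 0 of the 25 passed in monocytes, while 17 were lower at an unadjusted p under 0.05. Of 6 genes for the cutting, protection and modification of transfer RNA, 1 passed in monocytes, Nsun2, which encodes a transfer RNA methyltransferase (-0.26, SE 0.083, adjusted p = 0.0284), where 25.3% of all genes were called. That call was lost with the fibroblast covariate and without the 6 controls, and 0 passed in macrophages with edgeR or DESeq2, or at an unadjusted p under 0.05. Between cell types 4 of the 6 transfer RNA genes were higher and 1 lower in macrophages of anti-PD-L1 tumours. That comparison called 53.9% of all genes. The 5 called were Alkbh1, Ang, Elac2, Nsun2 and Rnh1. In control tumours 2 were higher and 1 lower, where 44.1% of all genes were called. Ang, whose product angiogenin cuts transfer RNA, was higher in macrophages than in monocytes, by 1.03 (SE 0.16) in anti-PD-L1 and 1.16 (SE 0.16) in control tumours. Rnh1, which encodes the inhibitor of angiogenin, was lower in macrophages, at -0.73 (SE 0.16) and -0.78 (SE 0.16).

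The other Schlafen models of the genome were low. Slfn14 had 0 to 7 counts and Slfnl1, on chromosome 4, 0 to 5 counts in each library, too few to test. The pseudogene Slfn10-ps averaged 11.1 ± 2.51 CPM in anti-PD-L1 and 7.17 ± 2.57 CPM in control monocytes (0.63, SE 0.23, adjusted p = 0.0469). It shares sequence with Slfn8 and Slfn9, so its counts are uncertain. The antisense model Slfn5os rose in monocytes by 0.74 (SE 0.21, adjusted p = 0.0161). It overlaps Slfn5, its counts were 2.68% to 3.25% of those of Slfn5 in every library, and no source states the strand setting of the counting, so reads of the 2 genes cannot be told apart.

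Genes beside the cluster were compared to see whether they moved with it. Of the 3 nearest tested genes on each side, among them Rffl, Rad51d and Nle1 before it and Ap2b1 and Mmp28 after it, 0 rose with treatment in either cell type with edgeR. Ap2b1, an adaptor protein gene, had an unadjusted p of 0.013 in monocytes (0.24, SE 0.086, adjusted p = 0.051) and was called there by DESeq2. Nle1, a ribosome assembly gene, fell in monocytes by 0.69 (SE 0.15, adjusted p = 0.00598), and Mmp28, a matrix metalloproteinase gene, fell in macrophages by 1.94 (SE 0.50, adjusted p = 0.0435). Between cell types Rffl, which encodes a ubiquitin ligase, was lower in macrophages, at -1.85 (SE 0.19) in anti-PD-L1 and -1.46 (SE 0.19) in control tumours.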

How the data were processed

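RNA-seq of sorted tumour macrophages and monocytes was deposited as 1 table per library, 20 in all. The labels' protocols name a stranded kit and an input of 0.1 µg of total RNA, while the molecule is labelled polyA RNA. The submitters' processing notes name GSNAP as the aligner and GRCm38 as the build. Aligner version, annotation, counting tool and read length: not given in the sources used here. Each of the authors' tables holds, per the file headers, a count of uniquely aligned reads per gene and an RPKM value (nRPKM). The deposited counts were used unchanged for tests. The deposited RPKM values were used to set levels of different genes side by side. Precision was even, with 30191509 to 36514133 counts per library. Symbols and coordinates came from RefSeq on GRCm38.p6, which matched 31049 of 36528 models (85.0%), and transcript sequence from GENCODE M21.

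Tests on counts used edgeR 4.0.16 under R 4.3.3 (filterByExpr, TMM, quasi-likelihood F-test, 1 mean per group over 20 libraries, Benjamini-Hochberg over 15390 genes), after testing the fit on simulated data. CPM uses TMM library sizes and log2 CPM a prior count of 2. Intervals are 95%. Alternatives used DESeq2 1.42.0, limma-voom (limma 3.58.1), DESeq2's size factors, no low-count filter, 2 groups at a time, the mean log2 CPM of 19 fibroblast markers as a covariate, 14 libraries without the 6 controls highest in those markers, and each library left out.

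Replicate numbers follow the order of deposit and only name libraries. Libraries with neighbouring sample numbers, 1 macrophage and 1 monocyte library of the same treatment, deviated together from their group means: the correlation was 0.218 to 0.722 over the 10 pairs. This pairing comes from the sample numbers and the data and is not stated in the labels; it was used as a block in limma-voom (correlation 0.53). No 2 libraries of a group were copies, the lowest chi-square per degree of freedom being 22.06. Members, lists and alternatives were chosen with earlier results of these data known. Named were all members, other Schlafen models, 3 neighbours a side, 3 genes most like each member and up to 4 called genes of each interferon list with the smallest p. Some genes that this rule names are not reported here. Ang and Rnh1 of the transfer RNA list, Ccnb2 and the single markers of other cell types were chosen after their values were seen. A planned comparison of proteins was replaced by one of coding sequences, and proteins were not used here.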

Additional observations from a re-analysis of the deposited data

Results flagged for a closer look

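Among 28 sets of 5 libraries (7 members in 4 groups), 2 held a library whose gap to its nearest neighbour exceeded 0.71 of the range, and chance alone gives about 1 in 20. Slfn5 in anti-PD-L1 monocyte replicate 5 was at 9.37 log2 CPM, below the other 4 at 9.87 to 10.04. Slfn9 in control monocyte replicate 5 was at 5.94 log2 CPM, above the other 4 at 5.39 to 5.54. That control library was also the control monocyte library lowest in fibroblast markers, and its part in the Slfn9 value was not tested.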

How the results depend on the processing

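Counts of members called held within 1.5 times in the other settings except as follows. In macrophages 0 of 7 passed with the fibroblast covariate and 0 without the 6 fibroblast-rich controls, against 1. In monocytes 2 passed in a fit to 2 groups, 0 with the covariate and 0 without the 6 controls, against 5. Over all genes, 715 called in macrophages became 1878 with DESeq2, 191 with limma-voom, 243 with neighbouring libraries as a replicate block, 1193 in a fit to 2 groups, 2 with the covariate and 70 without the 6 controls. In monocytes 3900 became 2019 in a fit to 2 groups, 7 with the covariate and 83 without the 6 controls. The count of 0 for the difference of effects became 7 with DESeq2 and 8 with the block. The block changed no member call other than that of Slfn3 given in the report. Causes were not tested.

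Leaving out 1 library at a time gave 0 to 1 members in macrophages, 2 to 7 in monocytes, 5 to 5 in macrophages against monocytes of anti-PD-L1 tumours and 5 to 6 in control tumours. Over all genes it gave 14 to 1928 in macrophages, 1883 to 5359 in monocytes, 0 to 41 for the difference, 7721 to 8643 between cell types in anti-PD-L1 and 6000 to 7363 in control tumours. Slfn1 and Slfn9 were called in monocytes in 20 of 20 such fits, Slfn8 in 18, Slfn2 in 14 and Slfn5 in 13.

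Signs turned in values that had not passed. Slfn9 in macrophages was -0.19 with the covariate and -0.093 without the 6 controls, and without 1 library ranged from -0.014 to 0.15. Slfn4 ranged from -0.21 to 0.31 and Slfn3 from -0.097 to 0.11 there. The difference of effects without the 6 controls was 0.074 for Slfn1, 0.10 for Slfn5 and 0.13 for Slfn8, and without 1 library ranged from -0.21 to 0.016 for Slfn1 and from -0.38 to 0.00017 for Slfn5. Slfn3 between cell types of control tumours was -0.020 with DESeq2's size factors, -0.019 with DESeq2, -0.057 with the covariate and -0.018 without the 6 controls, and ranged from -0.14 to 0.18 without 1 library. Depth did not limit the members, the lowest of which had 254 counts. For Slfn14 and Slfnl1 a count of 0 allows up to 3 counts.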
